A study of Homo sapiens with 6 samples.

Results

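The features described here were the array features of multi-probe genes that rose after UV light irradiation. RNA of Hep3B, an established human hepatoma line, was compared between cells harvested 6 hours after a UV dose of 10 J/m2 and untreated Hep3B cells, on 6 two-colour splicing-sensitive arrays. The arrays covered 3 replicates, each hybridized once with the irradiated sample in Cy5 (direct array) and once with it in Cy3 (dye-swap array), and each value was a log2 ratio of UV over untreated. A feature was taken as a member when its gene was represented by 3 or more features, all 6 arrays gave a value, all 6 values lay above 0 and their mean was 0.38 or more, a fold of about 1.3. The rule selected 676 of the 45220 features of the table, and 2.21% of the 30586 features of multi-probe genes with 6 values. They lay in 120 of 466 multi-probe genes. Since the values themselves chose the members, they are given as a description and carry no test.

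UV light forms bulky lesions in DNA that block elongating RNA polymerase, so transcripts of long genes are known to fall while short stress genes are induced. Genes respond at the level of the whole transcript and, through alternative promoters, exons and polyadenylation sites, at the level of single exons, and an array with many features per gene reads both. Features of a gene can therefore move together or apart.

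No hepatocyte marker of the 12 listed was represented on the array, so the liver origin of the line could not be checked. Of 15 markers of other lineages, FN1, KDR and CD14 were represented on the array. FN1, listed as a fibroblast marker but also expressed by many epithelial and tumour lines, held members. It cannot tell these lineages apart. The endothelial marker KDR held none (gene mean 0.07, adjusted p = 0.0298 by limma), and the blood marker CD14, with 1 feature, could hold none by the rule (0.25, adjusted p = 0.00881). All 3 gene means were called higher, as were 30.2% of all 774 named genes. The part of these 3 markers in the results was not tested. A value was present for 36532 to 38392 features per array, and the medians of the arrays lay between -0.01 and 0.01. Arrays of one orientation correlated at 0.84 to 0.94 across features, and arrays of different orientation at 0.54 to 0.66. Dye-swap array 1 stood apart among the features numbered after 39000, a boundary drawn after the values were seen. There, 81 of 4065 features (1.99%) lay 1 or more above the median of the other 5 arrays, against 42 of 26521 earlier features (0.158%), and 9 members were among the 81. RNA came from whole cultures, so a shift in the mix of cells and a change in RNA per cell cannot be told apart.

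The sequences of the features were not among the files used here, so whether 2 features hold the same probe is unknown. Several members of a gene may therefore read the same stretch, and members of a gene are not independent of each other. To show where the transcripts of the genes that the results turn on begin, the 100 bases before the annotated start are given from RefSeq (GRCh38.p14), for 3 genes with members above 1 and a TATAAA (FOS, TNF and SPTAN1) and for 2 genes that held many members and have none (DYNC1H1 and NOP56). NOP56 also held members above 1, as did DDX39B, which has no TATAAA in these bases and is not shown. LUC7L3, MBNL1 and GLI1 held such members too, and their bases were not looked at singly. The 3 genes shown with a TATAAA are therefore examples and give no share of the genes with members above 1. GADD45A had no entry. Capitals mark a TATAAA box, a CCAAT box, the letters TGACG or the letters GGGCGG, on either strand.
FOS, chr14:75278728-75278827, plus strand: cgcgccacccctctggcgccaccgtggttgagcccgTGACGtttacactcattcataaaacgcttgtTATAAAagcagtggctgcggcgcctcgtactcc
TNF, chr6:31575465-31575564, plus strand: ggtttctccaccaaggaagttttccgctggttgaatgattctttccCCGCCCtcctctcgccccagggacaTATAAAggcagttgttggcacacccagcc
SPTAN1, chr9:128552487-128552586, plus strand: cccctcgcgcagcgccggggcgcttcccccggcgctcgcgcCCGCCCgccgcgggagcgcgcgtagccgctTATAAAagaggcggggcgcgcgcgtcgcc
DYNC1H1, chr14:101964473-101964572, plus strand: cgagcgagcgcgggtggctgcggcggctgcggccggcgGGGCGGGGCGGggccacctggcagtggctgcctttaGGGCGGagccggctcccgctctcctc
NOP56, chr20:2652532-2652631, plus strand: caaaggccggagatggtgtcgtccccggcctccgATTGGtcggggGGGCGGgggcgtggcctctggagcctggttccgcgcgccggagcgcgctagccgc

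In FOS the TATAAA began 33 bases before the start and in TNF and SPTAN1 29 bases before it. RefSeq promoters were matched for 103 of the 120 genes with members. TATAAA lay within these 100 bases in 7 of the 103 (6.80%), in 14 of 297 other multi-probe genes (4.71%) and in 6.23% of the 27305 genes of the table. TGACG lay in 19.4% of the 103, in 22.2% of the other multi-probe genes and in 14.2% of all genes. GGGCGG lay in 63.1%, 57.9% and 35.2%. These matches describe letters and say nothing of a factor that binds them.

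The members were concentrated in few genes. Of the 120 genes, 41 held 1 member, 41 held 2 to 4 and 38 held 5 or more. The 14 genes with 10 or more members accounted for 371 members (54.9%), and DYNC1H1, PRKDC and FN1 alone for 201 (29.7%). Over the 120 genes the median share of a gene's features that were members was 3.46%, 75 genes were below 5% and 9 genes reached 20% or more. Here and below, counts and shares of a gene's features refer to those with 6 values, such as 17 of the 22 of TNF. Gene means use every feature with a value on the array. With features that lack a value included, the genes with members were represented by a median of 97 features and the other multi-probe genes by 68.

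Most members rose by little. Their means ran from 0.38 to 1.83 with a median of 0.445 on the log2 scale, 115 reached 0.58 and 35 reached 1, and those 35 lay in 9 genes. The SD over the 3 replicates had a median of 0.069 and a highest value of 0.776. Single arrays gave values between 0.01 and 3.22, and 163 members were at 0.38 or more on every array. The same rule turned round (all 6 arrays below 0, mean of -0.38 or less) selected 3707 features (12.1%) in 205 genes, or 5.48 falling features for each member. Members and such falling features were found together in 42 genes, which were 35% of the genes with members and 20.5% of the genes with falling features. Both shares were below those of all multi-probe genes, of which 44.0% held a falling feature and 25.8% a member.

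The mean over all features of a gene was then tested for each of the 774 named genes by limma with Benjamini-Hochberg adjustment. Of the 120 genes that hold members, 73 were called higher, 19 lower and 28 were not called at an adjusted p of 0.05. Over all 774 genes, 30.2% were called higher, 41.5% lower and 28.3% were not called. The gene mean contains the members and rests on the same arrays as the rule, so these counts are descriptions. Genes called higher held 552 of the members (81.7%), genes not called held 81 (11.98%) and genes called lower held 43 (6.36%). Few gene means were large: beyond a fold of 1.3 in addition, 2 genes were higher (GADD45A and TNF) and 3 lower (LSM8, LUC7L3 and MAP2K4, the last a kinase of JNK), against 2 and 42 of all 466 multi-probe genes and 16 and 145 of all 774 genes. The median gene mean was 0.09 in the genes with members and -0.02 in the other multi-probe genes, which divided into 89 higher, 148 lower and 109 not called. The count of genes called higher fell to 39 without replicate 1, to 28 without replicate 3 and to 47 without dye-swap array 1. The count called lower was 8 without replicate 3 and 11 without dye-swap array 1, and the count not called was 12 without replicate 2.

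**Figure D1:**
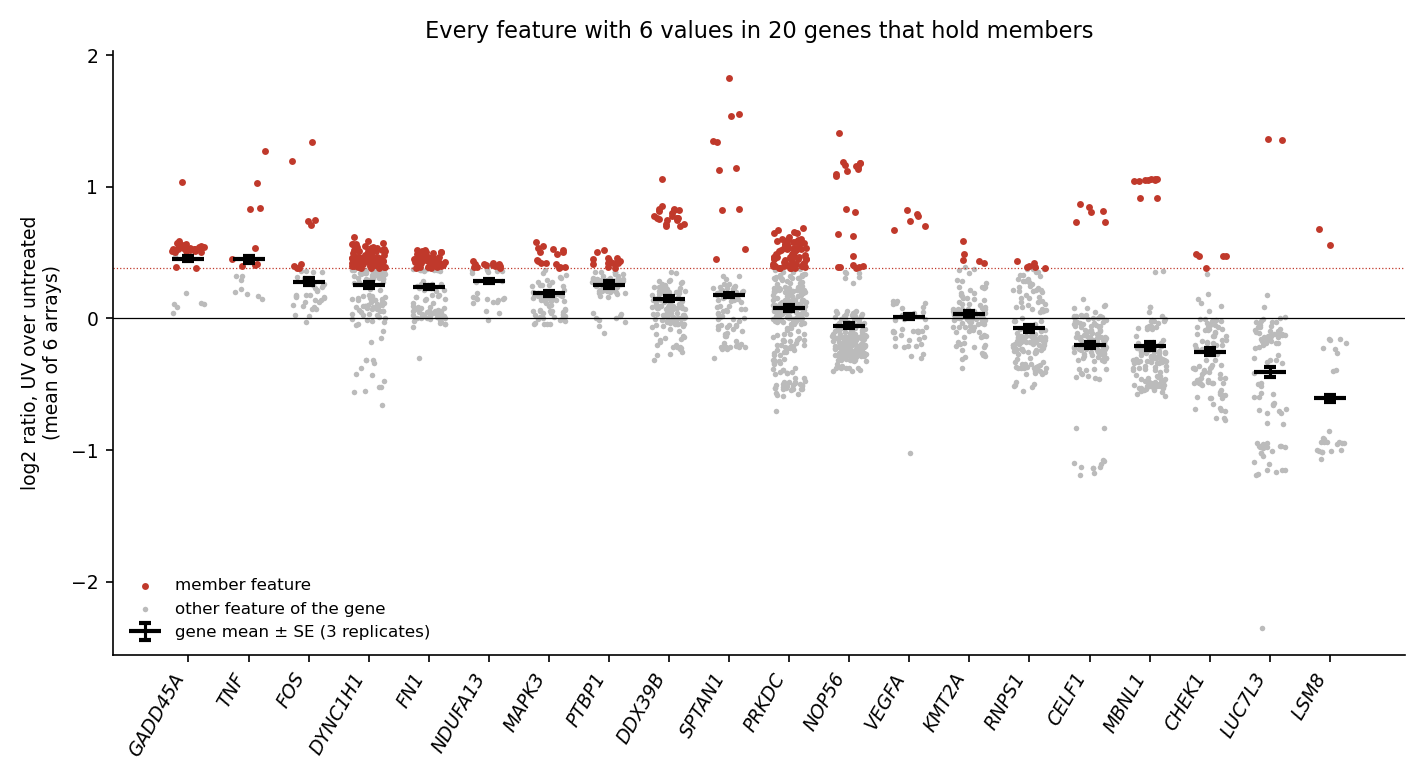
Log2 ratio of UV over untreated, as the mean of 6 arrays, for every feature with 6 values in 20 genes, with members in red, other features in grey and the gene mean ± SE over 3 replicates as black bars. The dotted line marks 0.38. In GADD45A most features are members, in DDX39B, MBNL1 and CELF1 a separate group of members lies above the rest, and in LUC7L3 and LSM8 the members stand alone above genes whose mean fell.

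**Figure D2:**
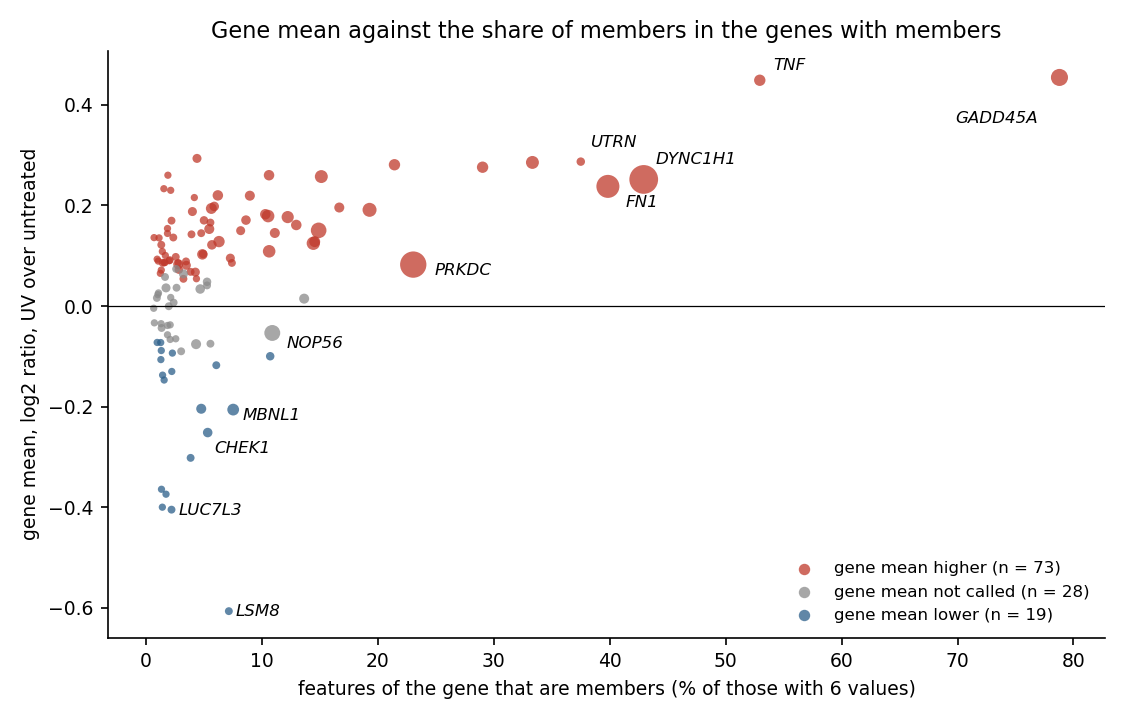
Gene mean (log2, UV over untreated) against the share of a gene's features that are members, for the 120 genes with members. Point area grows with the number of members, red marks 73 genes called higher, grey 28 not called and blue 19 called lower. All 9 genes with a share of 20% or more were called higher, as were 30.2% of all 774 named genes. The gene mean contains the members, so a large share raises it by construction.

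GADD45A, TNF and FOS each had 20% or more of their features as members and no feature that fell by the mirrored rule. GADD45A, a gene induced by DNA damage that acts in growth arrest and repair, had 26 members among 33 features (78.8%), the largest share of the 120 genes. Its member median was 0.53. The gene mean was 0.44, 0.61 and 0.61 on direct arrays 1, 2 and 3 and 0.46, 0.35 and 0.26 on dye-swap arrays 1, 2 and 3, so all 6 arrays were above 0 and the direct arrays 2 and 3 were highest. Over the replicates the gene mean was 0.45 ± 0.019 (SE, n = 3, adjusted p = 0.000233 by limma). The members were close to each other, with 23 of the 26 between 0.50 and 0.59 in mean value. The highest, feature 42071, averaged 1.04 with a value of 3.22 on dye-swap array 1, and the mean of its other 5 arrays was 0.60.

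TNF encodes a cytokine that activates NF-κB and can trigger apoptosis. Of its 17 features, 9 were members (52.9%). Its highest member, feature 39340, gave 1.42, 1.29 and 1.36 on the direct arrays and 1.5, 1.05 and 1 on the dye-swap arrays. The lowest members lay near the limit, with a lowest mean of 0.40. The gene mean was 0.49, 0.37 and 0.50 on the direct arrays and 0.44, 0.41 and 0.48 on the dye-swap arrays, a narrow range, and reached 0.45 ± 0.026 (SE, n = 3, adjusted p = 0.000481).

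FOS encodes a subunit of the AP-1 transcription factor and is an immediate early gene. It had 9 members among 42 features (21.4%). Feature 40242 gave 1.64, 1.56 and 1.64 on the direct arrays and 1.2, 0.92 and 1.08 on the dye-swap arrays, so the orientations did not overlap. Feature 845 gave 1.1, 0.9 and 1.21 on the direct arrays and 1.39, 1.07 and 1.51 on the dye-swap arrays, which did overlap. The other 7 members had means of 0.75 or less. Over all its features the gene was at 0.28 ± 0.024 (SE, n = 3, adjusted p = 0.00124) and was above 0 on all 6 arrays.

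DYNC1H1 held more members than any other gene. It encodes the heavy chain of cytoplasmic dynein, the motor that carries cargo towards the minus ends of microtubules. Of 191 features, 82 were members (42.9%), with means between 0.385 and 0.62 and a median of 0.45. The median over members was 0.54, 0.575 and 0.485 on the direct arrays and 0.395, 0.42 and 0.37 on the dye-swap arrays. The features that were not members, including those without a value on every array, had a mean of 0.11. By the mirrored rule 8 features fell. The gene mean was 0.25 ± 0.023 (SE, n = 3, adjusted p = 0.00151).

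FN1 encodes fibronectin, an extracellular matrix protein with well known alternative exons. Its 51 members made up 39.8% of 128 features, and 42 of the 51 had means between 0.385 and 0.47. No feature of FN1 fell by the mirrored rule and 119 of 128 had a mean above 0. On the level of the gene the mean was 0.31, 0.32 and 0.30 on the direct arrays and 0.19, 0.14 and 0.16 on the dye-swap arrays, so the orientations did not overlap. It averaged 0.24 ± 0.017 (SE, n = 3, adjusted p = 0.000753).

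PRKDC encodes the catalytic subunit of the DNA-dependent protein kinase, which acts in the joining of double-strand breaks. It was split: 68 of 295 features were members (23.1%) with a median of 0.485, while 32 fell by the mirrored rule. Over all features the mean was -0.02, 0.04 and -0.05 on the direct arrays and 0.16, 0.22 and 0.14 on the dye-swap arrays, and was called higher at 0.08 ± 0.023 (SE, n = 3, adjusted p = 0.0352). The direction depended on the dye-swap arrays, since on the direct arrays alone the mean was -0.01. The call was also lost without replicate 1, without replicate 3 and without dye-swap array 1 (adjusted p = 0.130, 0.111 and 0.317).

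After GADD45A, NOP56 and DDX39B, the next 6 genes by number of members were called higher by their gene means. MAPK3 (ERK1, a MAP kinase) held 16 members of 83 features, MYH9 (the heavy chain of non-muscle myosin IIA) 14 of 97, NDUFA13 (a subunit of respiratory complex I) 13 of 39, PTBP1 (a repressor of exon inclusion) 13 of 86, MAP2K5 (the kinase upstream of ERK5) 12 of 113 and PXN (paxillin, a focal adhesion adaptor) 12 of 114. UTRN (utrophin), with 3 of 8, and MAP2K6 (a kinase of p38), with 9 of 31, were named for their share of members and were also called higher. The member medians of these 8 genes lay between 0.405 and 0.47, and their gene means between 0.11 for MAP2K5 and 0.29 for UTRN. The calls of MYH9 and MAP2K5 were lost without replicate 1 and without replicate 3 (adjusted p between 0.0512 and 0.0780), and that of MAP2K5 also with dye-swap arrays only (adjusted p = 0.119).

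In some other genes the members lay apart from the other features. The difference between the lowest member and the highest other feature of the gene was 0.2 or more in 19 genes with 72 members, a measure added after the values were seen. Of these 19 genes, 5 held 1 member and 5 held 5 or more. By the gene mean, 5 of the 19 were called higher, 6 lower and 8 were not called. SPTAN1 and NOP56, described next, were not among the 19. Among the 38 genes with 5 or more members, 18 had all of them within 0.1 of each other. The 5 genes with 5 or more members and a gap of 0.2 or more were not among the 18. Members just above the limit lie close together because of the limit, so the 18 are not a count of separate groups.

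SPTAN1, which encodes the non-erythroid alpha chain of spectrin, held the members with the highest means. Its 11 members among 90 features had means of 0.455 to 1.83, with a median of 1.14. The highest, feature 40264, gave 1.19, 1.53 and 1.38 on the direct arrays and 2, 2.55 and 2.3 on the dye-swap arrays. Feature 40612 gave 1.56, 1.74 and 1.64 on the direct arrays and 1.46, 1.54 and 1.38 on the dye-swap arrays. All 6 values of both lay above 1. The features that were not members, including those without a value on every array, averaged 0.05. The highest mean among the other 79 with 6 values was 0.325. The gene mean was called higher at 0.18 ± 0.017 (SE, n = 3, adjusted p = 0.00165).

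NOP56 encodes a core protein of the box C/D small nucleolar ribonucleoproteins, which guide methylation of ribosomal RNA. It held 22 members among 202 features (10.9%), with means of 0.39 to 1.41 and a median of 0.955. Its highest other feature was at 0.35, close below the lowest member. Within a width of 0.1, 9 of them lay between 1.08 and 1.18 in mean value. On these 9 the median was 1.39, 1.25 and 1.24 on the direct arrays and 0.98, 0.98 and 1.04 on the dye-swap arrays, higher on every direct array. The features that were not members, including those without a value on every array, averaged -0.16. Taken as a gene, the mean was 0.03, 0.15 and 0.08 on the direct arrays and -0.18, -0.17 and -0.23 on the dye-swap arrays, opposite in sign, and was not called (-0.05 ± 0.021, SE, n = 3, adjusted p = 0.0851).

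DDX39B, a helicase of splicing and mRNA export that the files list under its older name BAT1, held 21 members among 141 features (14.9%). They had means of 0.70 to 1.06, and no other feature of the gene had a mean above 0.36. The 15 members between 0.75 and 0.835 had medians of 0.88, 0.87 and 0.85 on the direct arrays and 0.83, 0.76 and 0.67 on the dye-swap arrays. The mean of all its features was called higher at 0.15 ± 0.018 (SE, n = 3, adjusted p = 0.00309). It was 0.05 with dye-swap arrays only (adjusted p = 0.117), and without replicate 3 the adjusted p was 0.0502.

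**Figure D3:**
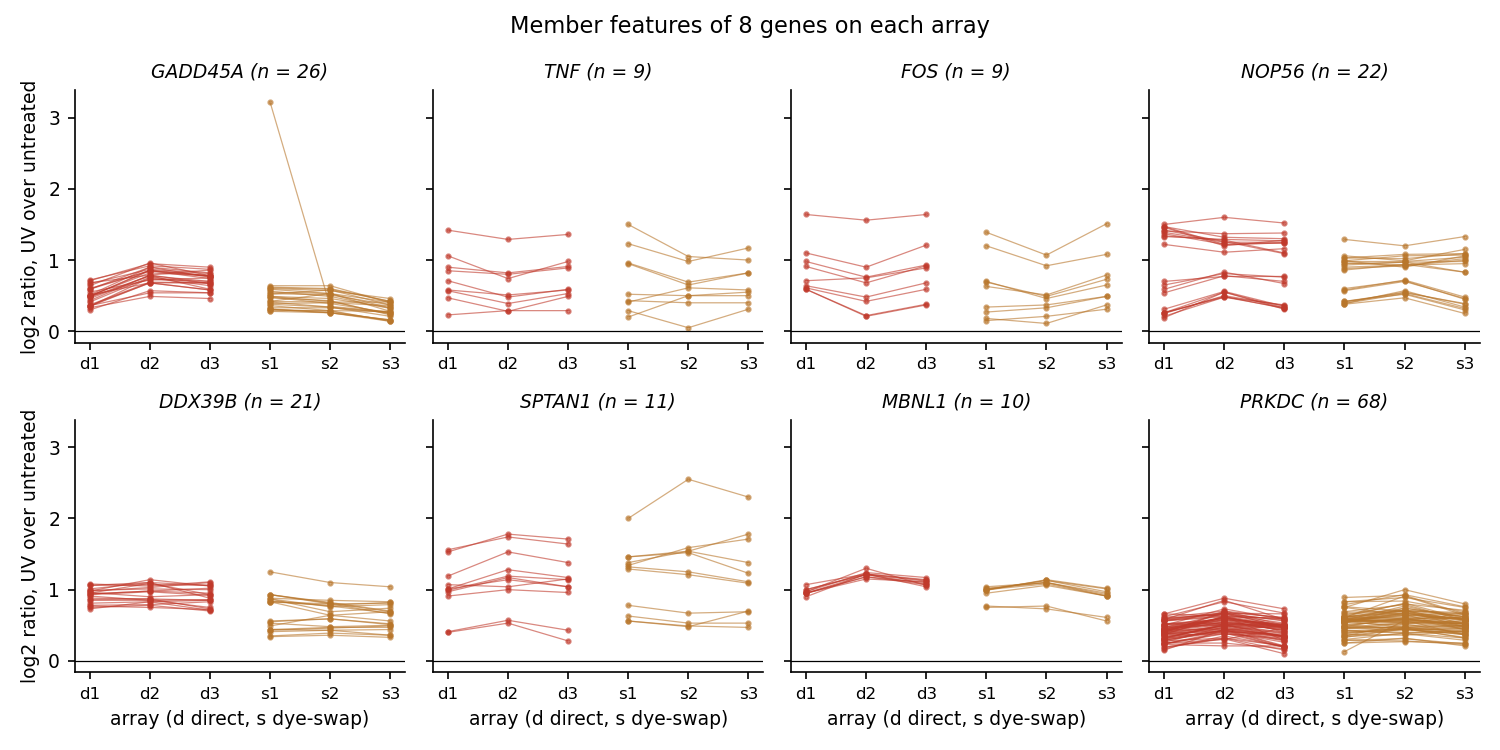
Log2 ratio of UV over untreated for each member of 8 genes on direct arrays (d1 to d3, red) and dye-swap arrays (s1 to s3, ochre). A line joins the values of 1 feature within an orientation and implies no order of the replicates. In MBNL1 8 of the 10 members run close together on all 6 arrays, the upper members of NOP56 lie higher on the direct arrays, and 1 member of GADD45A reaches 3.22 on dye-swap array 1.

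Members were also present in genes whose mean fell. The 19 genes called lower held 43 members with a median of 0.49, beside 360 features that fell by the mirrored rule, and 17 of the 19 held at least 1 such falling feature. Of the 73 genes called higher 8 held one, of the 28 not called 17, and of all multi-probe genes 44.0%. The gene mean contains the falling features as well as the members and rests on the same arrays. These counts are therefore descriptions from which nothing is read.

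MBNL1, a regulator of alternative splicing and polyadenylation, had 10 members and 41 falling features among 133. The members had means of 0.91 to 1.06, of which 8 lay between 1.04 and 1.06, and the highest other feature was at 0.36. On these 8 the median was 0.95, 1.21 and 1.09 on the direct arrays and 1, 1.1 and 0.94 on the dye-swap arrays. Values of the 8 differed by at most 0.15 on any array. Its gene mean was -0.26, -0.17 and -0.27 on the direct arrays and -0.25, -0.10 and -0.19 on the dye-swap arrays, all below 0, with an average of -0.21 ± 0.031 (SE, n = 3, adjusted p = 0.00592). Without replicate 3 the adjusted p was 0.0587.

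CELF1, another regulator of splicing that counteracts MBNL1 on shared targets, had 6 members and 22 falling features among 126. The members had means of 0.73 to 0.87 and the highest other feature 0.15. The highest member, feature 41577, gave 0.58, 1.09 and 0.85 on the direct arrays and 0.71, 1.07 and 0.90 on the dye-swap arrays, lowest in replicate 1. For the whole gene the mean was -0.20 ± 0.023 (SE, n = 3, adjusted p = 0.00258).

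LUC7L3, an SR-related protein associated with the U1 snRNP, had 41 falling features among 91 and 2 members. Feature 42984 gave 1.29, 1.34 and 1.42 on the direct arrays and 1.51, 1.41 and 1.19 on the dye-swap arrays. Feature 24317 gave 1.16, 1.36 and 1.23 on the direct arrays and 1.38, 1.63 and 1.39 on the dye-swap arrays. Both were above 1 on every array, and the gap of 1.18 to the next feature of the gene was the widest of the 120 genes. Its gene mean was -0.40 ± 0.038 (SE, n = 3, adjusted p = 0.00165).

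LSM8, a subunit of the LSm ring that binds the end of U6 snRNA and that the files list as NAA38, had the lowest gene mean of the 120 genes. It was -0.61 ± 0.026 (SE, n = 3, adjusted p = 0.000243), with 19 of 28 features falling by the mirrored rule. Its 2 members nevertheless had means of 0.56 and 0.68. Feature 15425 gave 0.74, 0.91 and 0.82 on the direct arrays and 0.77, 0.42 and 0.42 on the dye-swap arrays.

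CHEK1, the checkpoint kinase activated by ATR after UV damage, had 40 falling features and 5 members among 94, and its gene mean was -0.25 ± 0.024 (SE, n = 3, adjusted p = 0.00165). Feature 11477, the highest of the 5 members, gave 0.69, 0.52 and 0.54 on the direct arrays and 0.38, 0.41 and 0.42 on the dye-swap arrays, higher on each direct array. SNRPD1, which encodes the Sm protein D1, had 3 members with means of 0.42 to 0.43 among 28 features. Its gene mean was -0.51, -0.30 and -0.38 on the direct arrays and 0.21, 0.25 and 0.13 on the dye-swap arrays, so the orientations had opposite signs. It was called lower at -0.10 (adjusted p = 0.0447), a call lost without replicate 1, without replicate 3 and without dye-swap array 1 (adjusted p = 0.188, 0.217 and 0.154), lost with the replicate as a block (adjusted p = 0.225) and turned round when only dye-swap arrays were used (0.195, adjusted p = 0.00547).

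Among the genes whose mean was not called, VEGFA had the widest gap between its members and its other features. It encodes an angiogenic growth factor and held 6 members among 44 features. They had means of 0.67 to 0.82, above a highest other feature of 0.135. The highest, feature 15359, gave 0.78, 0.82 and 0.81 on the direct arrays and 0.95, 0.79 and 0.79 on the dye-swap arrays. Its gene mean was 0.01 ± 0.020 (SE, n = 3, adjusted p = 0.529). RNPS1, a component of the exon junction complex, held 6 members and 13 falling features among 139 (gene mean -0.08, adjusted p = 0.0501). KMT2A, a histone H3 lysine methyltransferase listed as MLL, held 5 of 107 (0.03, adjusted p = 0.261). MAPK9, the kinase JNK2, held 4 of 124 (0.06, adjusted p = 0.0585), and all 4 were higher in mean on the dye-swap arrays. Single members with high means were found in GLI1, a transcription factor of Hedgehog signalling (1.03, gene mean 0.22, adjusted p = 0.00372), in HNRNPM, an hnRNP splicing regulator (0.87, gene mean -0.07, adjusted p = 0.0547), and in BCL2L14 of the BCL2 family (0.76, gene mean 0.02, adjusted p = 0.396).

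Members were then counted in 14 gene lists. Over all multi-probe genes, 25.8% held a member and 2.21% of features were members. By the mirrored rule 12.1% of their features fell, and 34.8% of their gene means were called higher and 35.8% lower. Of 4 measured stress and immediate early genes, GADD45A and FOS held all 35 members (25.9% of features). By the mirrored rule 53 features of the list fell (39.3%). Of 15 genes of NF-κB and TNF signalling, 5 held 22 members (2.79%), led by TNF and by CD40, a receptor of the TNF receptor family with 8 members (gene mean 0.13 ± 0.021, SE, n = 3, adjusted p = 0.00763, and 0.0551 and 0.0803 without replicates 1 and 3). Over that list 3 gene means were called higher, 9 lower and 3 were not called. Of 18 death receptors, caspases and inhibitors of apoptosis, 5 held 7 members (0.559%). CRADD, an adaptor of caspase-2, and DFFA, the inhibitor of the apoptotic DNase, held 2 each. The 2 members of CRADD gave 0.58 to 0.92 on the direct arrays and only 0.01 to 0.14 on the dye-swap arrays. On the dye-swap arrays the gene mean of CRADD was 0.001. Of 7 BCL2 family genes, 2 held 8 members, of which 7 were in BCL2 itself (gene mean 0.16, adjusted p = 0.00392, and 0.0512 without replicate 3).

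Of 19 cell cycle genes, 2 held members: MYBL2, a transcription factor of proliferating cells, with 8 members (gene mean 0.19, adjusted p = 0.00288), and CHEK1. The list had 294 falling features (23.4%) beside 13 members (1.04%), and 11 of its gene means were called lower and 5 higher. DNA repair and checkpoint genes held 75 members in 3 of 10 genes, of which 68 were in PRKDC. Of 25 genes of the MAP kinase cascade, 9 held 48 members (2.72%), with 16 in MAPK3, 12 in MAP2K5 and 9 in MAP2K6. The list had 351 falling features (19.9%), and of its 25 gene means 9 were called higher, 12 lower and 4 were not called.

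The lists of RNA processing factors held members in 12.5% to 33.3% of their genes. Among U1, U2, tri-snRNP, Sm and LSm proteins 10 of 31 genes held 26 members (1.47% of features), led by SNRNP200, the helicase that unwinds U4 and U6 (6 members, gene mean 0.20, adjusted p = 0.00124), and SF1, the branch point binding protein (4 members, 0.19, adjusted p = 0.00237). Among 12 hnRNP genes 4 held 17 members (2.16%), of which 13 were in PTBP1 and 2 in RALY. Among 22 SR and SR-related genes 5 held 12 members (0.827%) beside 338 falling features (23.3%). Of the 22 gene means 12 were called lower and 3 higher. RNPS1 led that list with 6, and SRRM1 held 2 (gene mean 0.05, adjusted p = 0.0466). Of 8 kinases of splicing factors only CLK3 held members (3, gene mean 0.07, adjusted p = 0.0327), and 6 of the 8 gene means were called lower. Of the 7 measured genes of the RNA helicase list, which does not contain SNRNP200, only DDX39B did, and 5 of the 7 were called lower. Of 29 RNA-binding regulators of splicing 8 held 27 members (1.36%), and of 14 genes of polyadenylation, export and decay 2 held 11, with 5 in PABPC4, a cytoplasmic poly(A)-binding protein (gene mean 0.12, adjusted p = 0.0191). The calls of CLK3, SRRM1 and PABPC4 were each lost without replicate 1, without replicate 3 and without dye-swap array 1 (adjusted p between 0.0772 and 0.323). The gene mean of SRRM1 was -0.01 and that of PABPC4 close to 0 when only dye-swap arrays were used.

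Arrays that a choice did not use were read separately. Both orientations of a replicate hold the same RNA, so this repeat is technical. The rule applied to the 3 direct arrays selected 1810 features in 232 genes, of which limma called 49.3% higher and 12.5% lower on the dye-swap arrays, where 25.5% of all named features were called higher. Applied to the 3 dye-swap arrays it selected 1585 features in 289 genes, of which 46.2% were called higher and 11.9% lower on the direct arrays, where 28.8% of all were. Without 1 replicate the shares called higher were lower, at 25.0% to 30% for the first choice against 8.77% to 10.6% of all, and at 17.1% to 46.1% for the second against 5.02% to 22.2% of all. For the first choice the median was 0.46 on the arrays used and 0.13 on those read, and for the second 0.47 and 0.13. A mean of 0.38 or more was met again by 17.7% and 20.2%, against 5.32% and 5.93% of all features of multi-probe genes with 6 values.

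Genes differed in this repeat. Of the features chosen on the direct arrays, 87 of 92 in DYNC1H1, 54 of 57 in FN1, 52 of 56 in PRKDC, 25 of 27 in GADD45A, 18 of 18 in NOP56, 11 of 11 in SPTAN1 and 10 of 10 in TNF were called higher on the dye-swap arrays, as were 6 of 6 in each of CELF1, CHEK1 and VEGFA. The share was smaller in DDX39B (22 of 32), PXN (24 of 35), FOS (10 of 15), MAP2K5 (13 of 20), PTBP1 (28 of 53), MYBL2 (12 of 39) and GLI1 (2 of 10). In contrast, none of 57 in PCBP2, 30 in LMNA and 20 in PABPC1 were, 3 genes named after their values were seen. Of the features chosen on the dye-swap arrays, 69 of 87 in PRKDC, 50 of 54 in DYNC1H1, 22 of 22 in FN1, 22 of 23 in NOP56, 21 of 21 in DDX39B, 14 of 14 in MYBL2, 13 of 13 in PTBP1, 10 of 14 in MBNL1 and 3 of 6 in SNRPD1 were called higher on the direct arrays. The share was smaller in SF1 (12 of 30), RNPS1 (7 of 20), MUC4 (4 of 14) and CLK3 (2 of 16). None of 24 in SNRPD3, 17 in STAU1 and 16 in MAGOH were, and these genes too were named after their values were seen. Features of one gene share its transcripts, so these are counts of features and not of independent events. Apart from PCBP2, LMNA, PABPC1, SNRPD3, STAU1 and MAGOH the genes were named from members chosen on all 6 arrays. Those include the arrays read here, so the counts by gene are descriptions.

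Replicates were then left out in turn. Features chosen on 2 replicates had a mean above 0 in the replicate left out in 100% of 646 (replicate 1), 98.7% of 1027 (replicate 2) and 99.7% of 610 (replicate 3), against 51.5%, 51.6% and 50.9% of all features of multi-probe genes with 6 values. A mean of 0.38 or more was met again by 77.2%, 40.5% and 80.0%, against 3.59%, 2.22% and 3.84%. Replicate 2 gave the lowest values of the 3, with a median of 0.32 over the features chosen without it. The mean of the replicate left out holds 1 direct and 1 dye-swap array, so both orientations count equally in it.

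**Figure D4:**
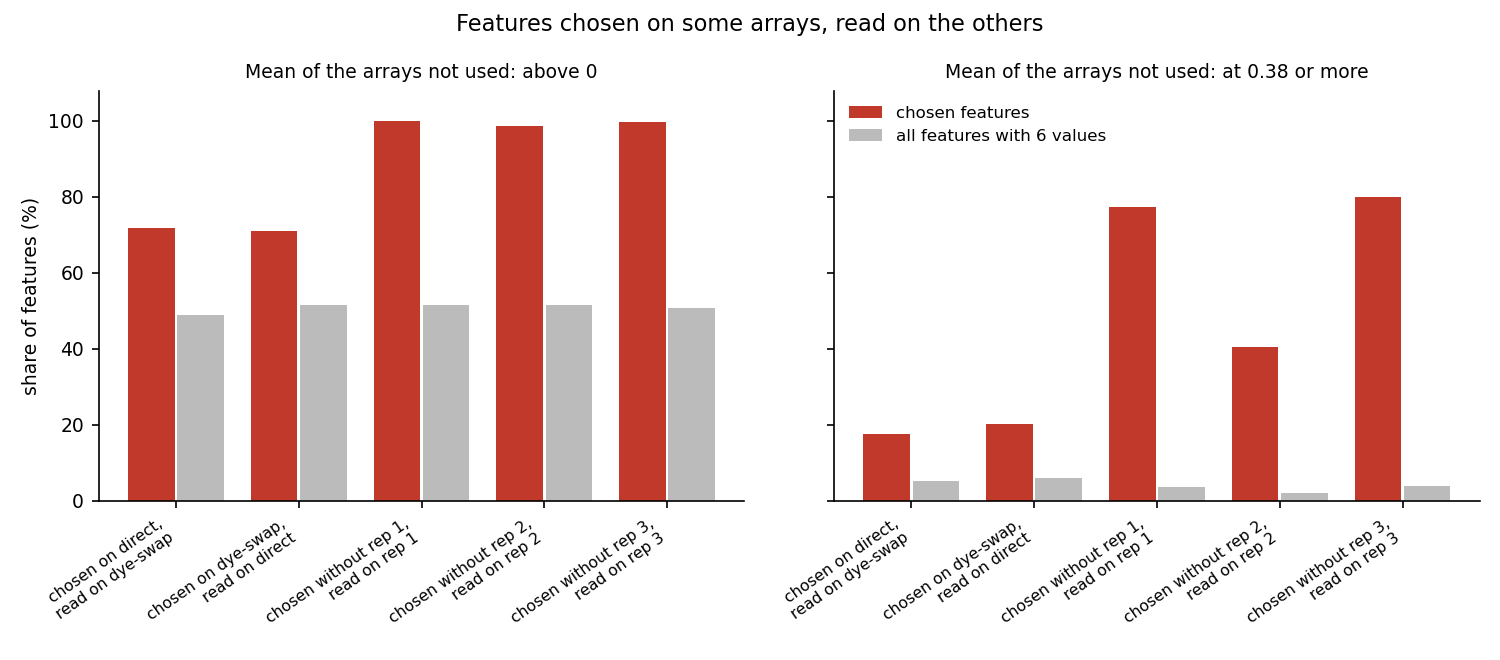
Share of features, in percent, whose mean lay above 0 (left) or at 0.38 or more (right) on arrays that had not been used to choose them, for features chosen on the other orientation or on the other 2 replicates (red) and for all features of multi-probe genes with 6 values (grey). The red bars at 0.38 or more are 17.7% and 20.2% across orientations and 77.2%, 40.5% and 80.0% across replicates.

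The 2 dye orientations were then compared within the members. The difference between the direct and the dye-swap array of a replicate, divided by 2, was fitted by limma over all named features. The fit uses the same 6 values that chose the members, and the sign criterion limits the size of the difference, so the counts are descriptions from which nothing is read. The difference was called for 316 of 676 members (46.8%), against 48.6% of all named features. In 187 members the direct arrays were higher (27.7%, against 26.3% of all) and in 129 the dye-swap arrays (19.1%, against 22.3%). Both orientation means reached 0.38 in 321 members. By gene, the direct arrays were called higher in 39 and the dye-swap arrays in 15 of the 82 members of DYNC1H1, in 24 and 6 of 51 in FN1, in 11 and 0 of 21 in DDX39B and in 10 and 0 of 26 in GADD45A, while in PRKDC it was 6 and 27 of 68 and in NDUFA13 1 and 9 of 13. A member's mean holds 3 arrays of each orientation, in which an additive difference between dyes cancels.

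**Figure D5:**
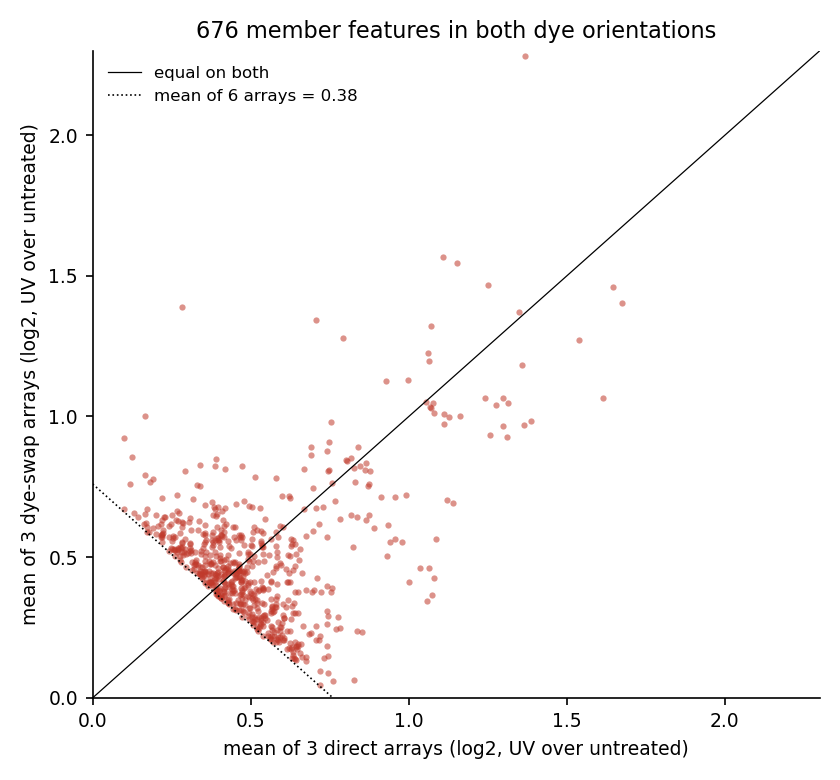
Mean of the 3 direct arrays against the mean of the 3 dye-swap arrays (log2, UV over untreated) for the 676 members, each point 1 feature. The solid line marks equal values and the dotted line a mean of 0.38 over all 6 arrays, below which no member can lie. The means of 365 members are higher on the direct and of 307 on the dye-swap arrays.

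Many members lay close to the limit. Means from 0.38 to below 0.40 were found in 131 members, and 148 features with all 6 arrays above 0 had means from 0.36 to below 0.38. Just inside were features of ELAC2 (a tRNA 3′ endonuclease), MUC4 (a membrane mucin) and SCUBE2 (a secreted glycoprotein), each at 0.38, and just outside were features of HNRNPF, MYH9 and NDUFA13 at 0.378. In all, 5316 features had 6 values above 0, of which 4640 had a mean below 0.38. A further 76 features reached 0.38 in mean but had an array at or below 0, and 22 were left out only for a missing array.

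In 12 members 1 array lay 1 or more above the median of the other 5, and in 9 of the 12 the mean of the other 5 arrays was below 0.38. In 9 that array was dye-swap array 1: beside GADD45A these were single features of SKP2, SUGP2, RAD54L, IRAK1, PTK2, FGFR2, MAPK13 and PRKCA. The feature of FGFR2, for example, gave 0.06, 0.13 and 0.11 on the direct arrays and 2.52, 0.05 and 0.20 on the dye-swap arrays. Without dye-swap array 1 the rule selected 728 features in 124 genes, of which 613 were among the 676.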

How the data were processed

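The authors hybridized Cy3- and Cy5-labelled cRNA to custom splicing-sensitive arrays, applied a normexp background correction and a LOWESS normalization, and tested with limma. The deposited values were log2 ratios, 1 column per array, with 15.1% to 19.2% of cells empty. What left a cell empty, the genome build and the feature sequences are not given in the sources used here. Dye-swap columns correlated above 0 with direct columns and were taken as already turned, so all run as UV over untreated. Scanner signal was not used here, and the number of arrays limits the precision.

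Features were grouped by the gene symbol of the platform table (842 symbols, 5074 features with none). Symbols printed were updated through RefSeq, through the accession (38971 features), the symbol (978) or a synonym (197). Gene means were taken per array and averaged over the 2 orientations of a replicate, then fitted with an intercept in limma 3.58.1 (R 4.3.3), two-sided, Benjamini-Hochberg over all genes tested. The SE comes from the moderated variance and leaves out the spread between features and between dyes. Features read on arrays not used for their choice, and half-differences between orientations, were fitted likewise over all named features. The procedures were tested on simulated data.

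The members, the lists and the rule that names genes were chosen with earlier results of these data known. Named were the 12 genes with most members, the 10 highest members of different genes, the 8 genes with the largest share of members, the 5 genes with most members in each class of gene mean, the 2 with most in each list, and the features next to the limit. Other names were chosen after their values were seen. Alternatives covered the limit, the sign criterion, missing values, scaling, orientation, replicates, the summary of a gene, the replicate block and thresholds.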

Additional observations from a re-analysis of the deposited data

How the results depend on the processing

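The count of members (676 in 120 genes) followed the limit: 221 in 40 genes at 0.49, 115 in 26 at 0.58 and 35 in 9 at 1. On the direct arrays alone it was 1844 in 237 genes and on the dye-swap arrays alone 1634 in 297, where 3 arrays in place of 6 had to lie above 0. Without 1 replicate it ran between 614 and 1034 features and between 110 and 178 genes, highest without replicate 2. Under 3 scalings of the arrays it was 659 to 694. The 73 genes called higher, 19 lower and 28 not called became 28 to 82, 8 to 26 and 12 to 84 without 1 replicate, and 47, 11 and 62 without dye-swap array 1, an alternative chosen after seeing the data. With a fold of 1.3 in addition they became 2, 3 and 115, and at an adjusted p of 0.01 they became 43, 14 and 63. On the dye-swap arrays alone 43 were not called. With the 6 arrays in the fit and the replicate block, 78 were called higher, 23 lower and 19 not. The fitted correlation within a replicate was then -0.51, and a negative correlation lowers the SE of a mean at a given spread between arrays. The replicate block with a dye term gave 74, 21 and 25, with a correlation of 0.37. Deviations of the direct and dye-swap array of a replicate, each from the mean of its orientation, correlated at -0.01, 0.45 and 0.10. Of features chosen on 1 orientation, 49.3% (direct) and 46.2% (dye-swap) were called higher on the other, 25.0% to 30% and 17.1% to 46.1% without 1 replicate, and 17.7% and 20.2% reached 0.38 there. Of features chosen without replicate 2, 40.5% reached 0.38 in it. Members called different between orientations numbered 316, 175 at an adjusted p of 0.01 and 0 to 303 without 1 replicate, and at an unadjusted p under 0.05 they numbered 264 to 397 without 1 replicate by the same limma fit. For the 45 named genes, 590 of 675 alternatives kept the side of the threshold, and where the gene was called also the direction. Where a gene was called neither before nor after, the sign was not compared. NOP56, for example, was at -0.053 on all 6 arrays and at 0.087 on the direct arrays alone. Of the remaining alternatives, 53 lost the call, 26 gained one and 6 turned the sign with a call before or after. The 6 were PRKDC without the members (-0.028) and on the direct arrays alone (-0.0093), VEGFA without the members (-0.092), where leaving out the highest features lowers a mean by construction, and on the dye-swap arrays alone SNRPD1 (0.195), SRRM1 (-0.0089) and PABPC4 (-0.0015). The cause of the others was not tested.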

Other observations

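Features outside multi-probe genes met the same value criteria in few cases. Of 1457 features with no gene symbol and 6 values, 3 had all 6 arrays above 0 and a mean of 0.38 or more, and of 295 features of genes represented by 1 or 2 features, 13 did. No other values belonged here.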
